A study of Mus musculus with 41 samples.

Results

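Of the 18762 H3K18la peaks of mouse embryonic stem cells in serum medium (mESC-ser) on chromosomes 1 to 19, 345 lay at a promoter, carried no H3K27me3 in the same stem cells and overlapped an H3K27me3 peak in both myotubes and post-ischemia macrophages. A promoter was any annotated transcription start site (TSS) with 2000 bp on each side, and an overlap of 1 bp counted. The steps left 9278 peaks at promoters, 7524 of these without stem cell H3K27me3 (called Polycomb-free here) and then the 345 members, beside 7179 other Polycomb-free regions. The members were thus chosen by the H3K18la list of mESC-ser and the H3K27me3 lists of mESC-ser, myotubes and post-ischemia macrophages, whose values are given as descriptions. The members were called silenced when they were proposed, but expression was not analysed here, and they are named below only by their marks.

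H3K18la is a lactate-derived acylation of histone H3 that is found at active promoters and enhancers, as are H3K27ac and, at promoters, H3K4me3. H3K27me3 is deposited by Polycomb repressive complexes and is found at genes that are kept off. Stem cells carry it at many developmental genes, while the genes of the pluripotent state gain repressive chromatin once cells differentiate.

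The marks were profiled by CUT&Tag, in which a transposase tethered to an antibody tags the DNA around a histone mark, in 41 samples of 24 groups, each a cell type with a mark. The stem cells were of the E14 line, grown with LIF. The serum cultures are mESC-ser, and those in a medium with inhibitors of MEK and GSK3 are mESC-2i. The labels give the strain of all differentiated samples as C57BL/6, and the methods name female C57Bl6/J mice: gastrocnemius muscle (GAS), primary myoblasts (MB), primary myotubes (MT), bone marrow-derived macrophages (BMDM), macrophages sorted from muscle after ischemia (PIM) and white adipocytes (ADIPO). By the methods, the adipocytes came from AdipoCre-NuTRAP mice, in which a Cre active in adipocytes switches on a tagging reporter, so ADIPO differs from the other samples in genotype as well as cell type. Whole cells were used for the stem cells and nuclei for everything else, so this step and differentiation cannot be told apart. GAS is a whole tissue with several cell types, in which fewer cells with a mark and less of the mark per cell cannot be told apart.

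The authors combined replicates before peak calling, so each group has 1 peak list and no replicate error, and the intervals below are 95% Wilson intervals that cover counting error only. The lists held 10849 to 36322 peaks, and the signal summed over the peaks of a list ran from 519 to 4289 Mb (coverage added over bases), unscaled for depth. Markers matched the labels: H3K18la lay within 2000 bp of a TSS for 8 of 8 stem cell markers in mESC-ser and in mESC-2i, 8 of 9 muscle markers in GAS (Myh1 was missed), 9 of 9 in MT, 8 of 8 macrophage markers in BMDM and in PIM, and 7 of 7 adipocyte markers in ADIPO. In MB 5 of 9 muscle markers were covered, among them Myod1, and Myog, Ckm, Acta1 and Myh4 were not. Markers of other cell types were also covered in places: 0 or 1 of 8 stem cell markers in the differentiated cell types, 0 to 2 of 9 muscle markers outside muscle, 0 to 3 of 8 macrophage markers outside macrophages (3 in MT and ADIPO) and 0 to 4 of 7 adipocyte markers outside fat (3 in GAS, 4 in PIM). Their part in the results was not tested. H3K27me3 lay within 2000 bp of a TSS for 2 of 8 stem cell markers in mESC-ser and 1 of 8 in mESC-2i. For muscle markers it was 3 of 9 in GAS and 1 of 9 in MT and in MB, and for macrophage markers 0 of 8 in BMDM and in PIM.

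Some regulators of pluripotency were among the members and others, such as Nanog, Esrrb and Klf4, were not. The 250 bases before the TSS of a few that were are printed to show the DNA that lay under H3K18la in stem cells. The sequences are those of RefSeq on GRCm38.p6, read 5′ to 3′ on the gene's strand, and capitals mark the words GGGCGTGG (a KLF-type GC box) and ACAAAGG (a SOX-type word) on either strand. Pou5f1 encodes OCT4 (chr17:35505782-35506031, plus strand), Sox2 its partner factor (chr3:34649745-34649994, plus strand), Tdgf1 a NODAL co-receptor (chr9:110946159-110946408, minus strand) and Tfcp2l1 a naive pluripotency factor (chr1:118627695-118627944, plus strand).
Pou5f1: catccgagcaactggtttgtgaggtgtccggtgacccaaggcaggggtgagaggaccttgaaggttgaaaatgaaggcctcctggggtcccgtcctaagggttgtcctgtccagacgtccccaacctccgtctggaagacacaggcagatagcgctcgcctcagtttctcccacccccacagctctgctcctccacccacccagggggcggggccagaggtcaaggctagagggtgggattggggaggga
Sox2: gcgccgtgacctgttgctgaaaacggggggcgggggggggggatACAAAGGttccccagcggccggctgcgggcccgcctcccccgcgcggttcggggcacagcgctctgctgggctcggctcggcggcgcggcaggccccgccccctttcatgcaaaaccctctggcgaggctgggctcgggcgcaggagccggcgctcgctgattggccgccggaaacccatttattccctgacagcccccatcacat
Tdgf1: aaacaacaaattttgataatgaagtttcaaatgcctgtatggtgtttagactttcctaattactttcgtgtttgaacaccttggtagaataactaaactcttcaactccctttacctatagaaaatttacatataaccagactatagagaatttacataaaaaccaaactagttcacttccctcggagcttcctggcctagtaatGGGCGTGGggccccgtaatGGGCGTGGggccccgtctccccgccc
Tfcp2l1: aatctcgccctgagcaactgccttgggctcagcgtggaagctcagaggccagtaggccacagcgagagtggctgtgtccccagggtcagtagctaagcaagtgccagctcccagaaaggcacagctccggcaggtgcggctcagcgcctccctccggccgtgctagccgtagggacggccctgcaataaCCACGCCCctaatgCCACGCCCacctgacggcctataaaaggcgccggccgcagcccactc

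In mESC-2i all 250 bases of each of these 4 promoters lay under H3K18la. H3K27me3 in BMDM also covered all 250 bases of each. The Pou5f1 promoter lay under H3K27me3 in GAS and PIM (250 bases each) but in neither MT nor MB (0 bases each), although its region as a whole overlapped the MT list. A second RefSeq promoter of Pou5f1 (chr17:35508557-35508806), not printed, differed in that GAS H3K27me3 covered 0 of its bases. The Sox2 promoter was covered in MT and MB (250 bases each), for 116 bases in PIM and for 0 bases in GAS. Tdgf1 was fully covered in MT, PIM and GAS and not in MB, and Tfcp2l1 in MT, PIM and MB and not in GAS. The cell types in which H3K27me3 reached the promoter itself differed from gene to gene.

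Few of the member promoters held the words. Of 244 RefSeq promoters of 250 bases that lay wholly inside a member, 21 (8.61%) held the GC box and 7 (2.87%) the SOX-type word, against 4.90% and 5.00% of all 31396 promoters. The KLF-type GT box GGGTGTGG was in 8 of the 244 (3.28%, against 3.20% of all), the octamer word ATGCAAAT in 3 (1.23%, against 1.61%) and TCAAGGTCA, an estrogen-related receptor site, in 0 (against 0.382%). In the 1000 bp around the maximum signal, the GC box was in 11.3% of members and 13.4% of the other Polycomb-free regions, and the SOX-type word in 18.8% and 21.7%, so the GC box stood higher in one comparison and lower in the other. A match describes these letters only.

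A member on chromosome 7 (chr7:3216052-3217625, 1574 bp) ended 1000 bp before the miR-290 cluster, the main microRNA cluster of mouse stem cells, and was chosen for display after its values had been seen. It is shown because 5 of the 13 mature miRNAs examined there share the first 6 seed bases AAGUGC, with the whole seed (bases 2 to 8) in capitals. The 13 are those that the RefSeq table gives for 7 hairpins. They leave out miR-292a-3p, which was not matched, and the arms of the overlapping miR-290b and miR-292b.
mmu-miR-291a-3p: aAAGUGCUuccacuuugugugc
mmu-miR-294-3p: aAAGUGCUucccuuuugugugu
mmu-miR-295-3p: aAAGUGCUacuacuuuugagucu
mmu-miR-291b-3p: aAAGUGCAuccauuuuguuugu
mmu-miR-290a-3p: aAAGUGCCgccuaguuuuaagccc
The first 3 have the same 7-base seed. In mESC-2i, H3K18la covered 81.8% of the member. None of the 6 differentiated cell types had H3K18la there. Over the hairpins (chr7:3218626-3220841) no list had H3K18la, those of stem cells included. H3K27me3 covered 100% of the member in MT, 99.7% in PIM, 17.2% in BMDM, 16.4% in GAS and 0% in MB. Over the span of the hairpins, with the bases between them, it covered 100% in GAS and PIM, 38.3% in BMDM, 26.3% in MT and 0% in MB. H3K27me3 thus reached this span in each of these cell types but MB, and covered all of it only in GAS and PIM.

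The members were wide regions. Their median width was 4579 bp (lower and upper quartile 2662 and 7495 bp), against 3463 bp (2422.5 and 5763.5 bp) for the other Polycomb-free regions, and 65 of 345 members (18.8%) were wider than 10 kb, against 9.12% of the others. Their median total signal in mESC-ser was 75607, against 51569, and 53 members (15.4%) were among the 1000 peaks with the largest total signal, against 7.33% of the others. A wider region has more bases that can meet any other peak, and the rule asked for 2 such overlaps, so these widths are a description. Members with H3K27me3 in 2, 3, 4 or 5 of the 5 differentiated cell types that have such a list had median widths of 3418.5, 3210, 4809 and 5165 bp.

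CpG islands and base composition were close to those of the other regions. A CpG island lay in 180 of 345 members (52.2%, interval 46.9 to 57.4) and in 50.7% of the others. The 1000 bp around the maximum signal had a median GC content of 52.7%, against 51.9%, and a CpG observed over expected ratio of 0.314, against 0.319. Promoter regions with stem cell H3K27me3, which the rule left out, were richer in both (56.6% and 0.462). The maximum lay in an intron in 46.4% of members, between genes in 38.0% and in an exon in 15.7% (others 45.2, 32.1 and 22.7%), and it was inside a promoter window in 70.1% (others 75.8%). Members thus had it less often in an exon (interval 12.2 to 19.9%, others 21.8 to 23.7%). Its median distance from the TSS of the naming gene was 967 bp. The members fell into 280 loci when those within 50 kb were joined, and 48 loci held more than 1. Chromosome 7 held the most (50 of 647 Polycomb-free regions, 7.73%), and the share was lowest on chromosome 13 (7 of 269, 2.60%).

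In mESC-ser the shares of members with other active marks were close to those of the rest. H3K27ac was present at 238 of 345 members (69.0%, interval 63.9 to 73.6), against 70.5% of the other Polycomb-free regions, a difference of -1.53 percentage points (interval -6.70 to 3.24). The member share was 40.2% with at least 50% of the stem cell peak covered, a setting for which no share of the others is given. By bases, H3K27ac covered 39.9% of the members and 42.1% of the others. Among regions with a CpG island the member share was 84.4%, against 90.6%. H3K4me3 was present at 199 (57.7%), against 55.9%. Both marks lay on 180 members (52.2%, against 52.0%). H3K4me3 lay at 157 of 180 members with a CpG island (87.2%) and at 42 of 165 without one (25.5%), and the split was of the same kind in the others (91.6 and 19.03%).

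**Figure D1:**
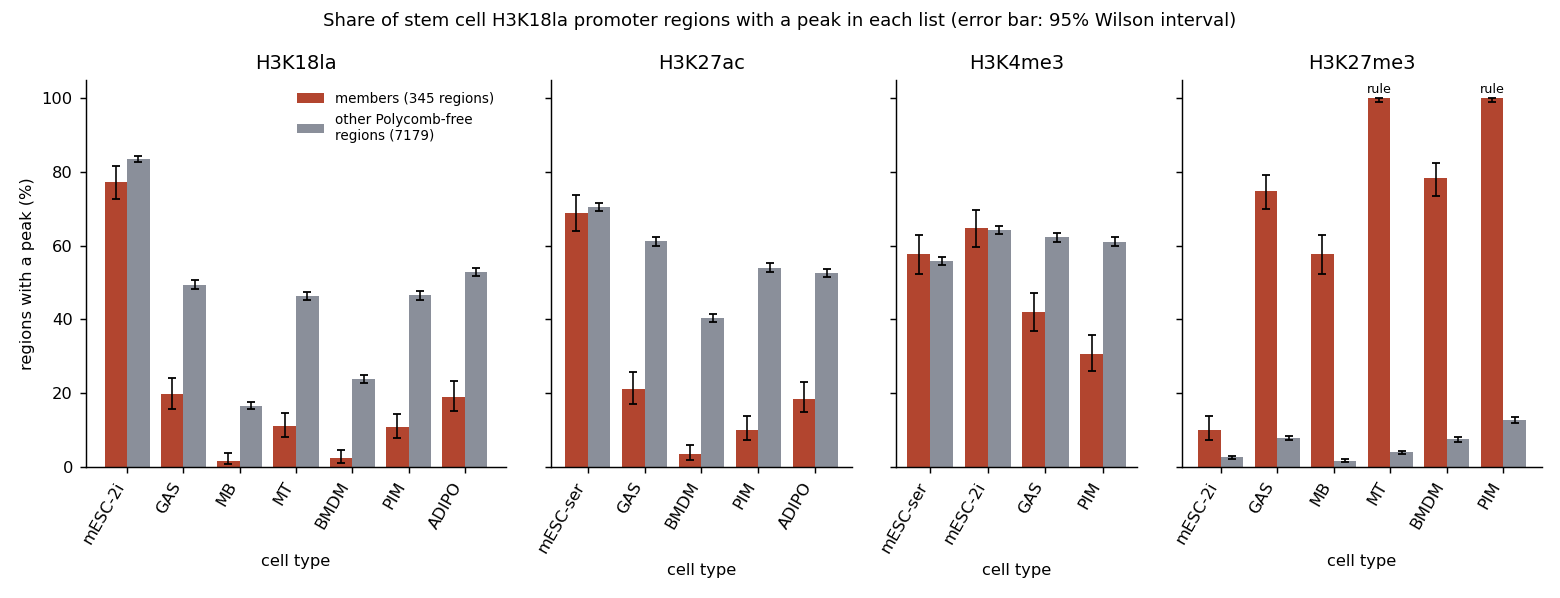
Share of regions (percent) with a peak of each mark in each cell type, for the 345 members and the 7179 other Polycomb-free stem cell promoter regions, with 95% Wilson intervals. The word "rule" marks the MT and PIM H3K27me3 lists, which chose the members. Members and others stand level in the stem cell lists of H3K27ac and H3K4me3, and the members stand lower for each active mark in every differentiated cell type that has a list of it.

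In 2i medium most members kept H3K18la. A peak was present at 267 of 345 (77.4%, interval 72.7 to 81.5), against 83.6% of the others, a difference of -6.19 percentage points (interval -11.0 to -1.995). The 2i peaks at the members were wide, with a median of 8344 bp for 250 peaks, against 5943 bp at the other regions and 4605 bp for all 19489 peaks of that list. H3K4me3 in 2i was at 224 members (64.9%, against 64.3%), and more often where H3K18la had been kept (195 of 267, 73.0%, interval 67.4 to 78.0) than where it had not (29 of 78, 37.2%, interval 27.3 to 48.3).

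H3K27me3 appeared in 2i at 35 members (10.1%, interval 7.39 to 13.8), against 2.65% of the other Polycomb-free regions. With the 5000 largest peaks of each list it was at 5.77% of members, a setting for which no share of the others is given. H3K27me3 of 2i lay at 25 of the 78 members without 2i H3K18la (32.1%, interval 22.7 to 43.0) and at 10 of the 267 with it (3.75%, interval 2.05 to 6.76). The 25 regions that had H3K27me3 and no H3K18la in 2i included those of Tcf15, a transcription factor of the paraxial mesoderm, Shank1, a scaffold of the synapse, Syt5, a synaptotagmin, Myrf, a regulator of myelination, and Zfp423, a zinc finger factor of neural and fat development, all named after their values were seen. The 10 with both marks included Gli1, a transcription factor of Hedgehog signalling, also named after its values were seen. Members without 2i H3K18la were narrower in mESC-ser, with a median of 2609 bp against 5120 bp for those with it.

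**Figure D2:**
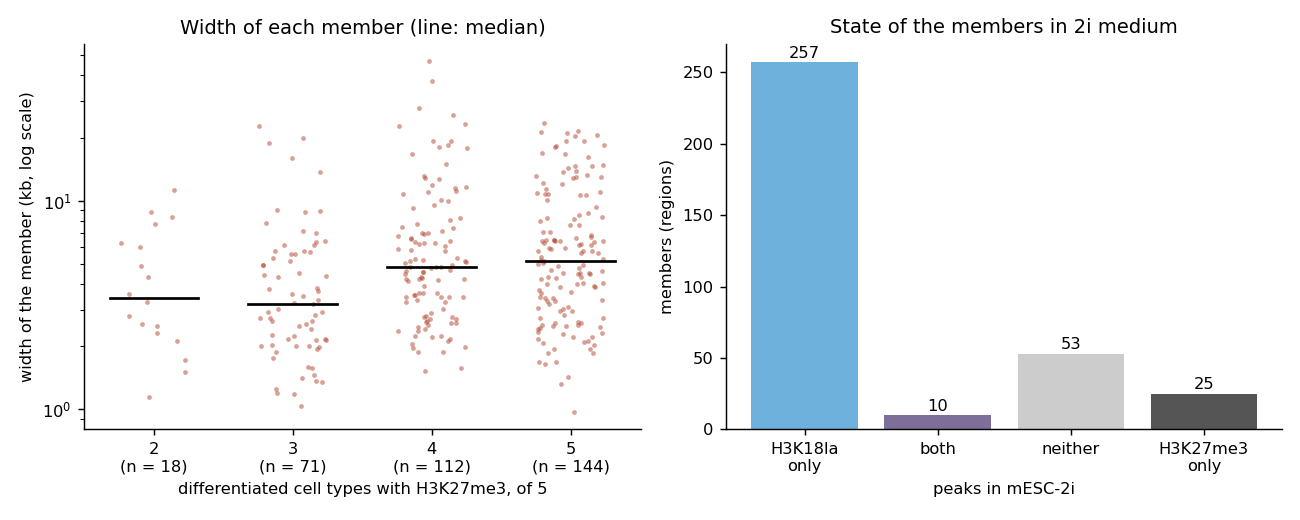
Left, width of each member in mESC-ser (kb, log scale) by the number of differentiated cell types with H3K27me3 of 5, with a line at the median. Right, number of members with H3K18la, H3K27me3, both or neither in mESC-2i. The 4 medians run from 3210 to 5165 bp, and 257 of the 345 members had H3K18la without H3K27me3 in 2i.

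Outside the lists that chose them, the members carried H3K27me3 in most other differentiated samples. In BMDM 270 of 345 (78.3%, interval 73.6 to 82.3) had a peak, against 7.47% of the other Polycomb-free regions. In GAS the count was 258 (74.8%, interval 69.9 to 79.1), against 7.88%, and in MB 199 (57.7%, interval 52.4 to 62.8), against 1.71%. MB and GAS share the muscle lineage with MT, and BMDM the macrophage lineage with PIM. Of the 7179 others, 5987 had H3K27me3 in neither MT nor PIM, and their shares were 1.17% in BMDM, 4.09% in GAS and 0.234% in MB. With H3K27me3 in PIM only the shares were 47.9, 21.6 and 1.65%, and with it in MT only 11.2, 43.9 and 33.0%. Promoter regions with stem cell H3K27me3 stood at 54.7, 45.8 and 29.5%. The mark was thus also frequent at some regions outside the members. Of the lists that chose the members, MT was at 3.97% and PIM at 12.6% of the other regions, and nothing is read from that. All 3 of GAS, MB and BMDM had H3K27me3 at 144 members (41.7%, interval 36.7 to 47.0), against 0.237% of the others. At the other end, 18 members (5.22%) had it in none of the 3, and the corresponding share of the others was 86.3%.

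The pattern over these 3 cell types was uneven. GAS and BMDM without MB was the next most frequent combination (65 members, 18.8%), followed by BMDM alone (34) and GAS alone (29). MB and BMDM without GAS was found at 27 members, GAS and MB without BMDM at 20 and MB alone at 8. The MB list was also the one with the smallest in-peak signal of all 24 (519 Mb) and the fewest called bases among the 5 differentiated H3K27me3 lists (53.8 Mb, against 98.04 to 162 Mb), and the part of this in the lower MB share was not tested.

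**Figure D3:**
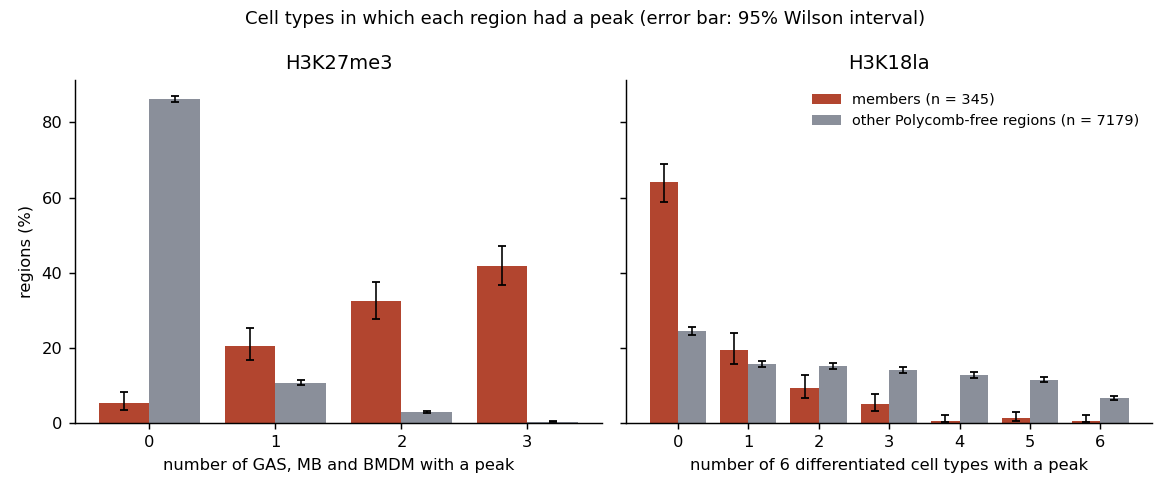
Share of regions (percent) by the number of cell types with a peak, for H3K27me3 in GAS, MB and BMDM and for H3K18la in the 6 differentiated cell types, with 95% Wilson intervals. Most members had H3K27me3 in 2 or 3 of the 3 cell types, and 64.1% had H3K18la in none of 6, against 24.5% of the others.

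How much of the stem cell region lay under H3K27me3 differed between cell types. In BMDM it covered 59.1% of all member bases (others 5.70%), in GAS 48.1% (3.87%) and in MB 30.2% (0.799%). In 2i the figure was 5.07% (1.41%). The point of maximum H3K18la signal was under H3K27me3 at 66.7% of members in BMDM, 51.9% in GAS and 38.3% in MB, and at 5.60, 4.21 and 0.669% of the other regions. The members also stood in longer H3K27me3 domains. At 10 kb to the side of lower coordinates 31.0% of members were still under a BMDM peak and 33.0% under a GAS peak, and 5.34% and 5.27% of the others. Stem cell H3K27me3 was also nearer to the members. At that point mESC-ser H3K27me3 lay at 8.70% of members and 2.63% of the others, and that of 2i at 11.9% and 4.11%. At 10 kb on the other side the mESC-ser shares were 3.77% and 2.59%. The median BMDM H3K27me3 peak at a member was 10111 bp wide (252 peaks), against 6909 bp at the other regions and 5241 bp for all 11649 peaks of that list. The median GAS peak was 4108.5 bp, against 2846 bp at the other regions and 2798 bp for all. At the lists that chose the members, MT covered a median of 84.2% and PIM 90.6% of a member.

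**Figure D4:**
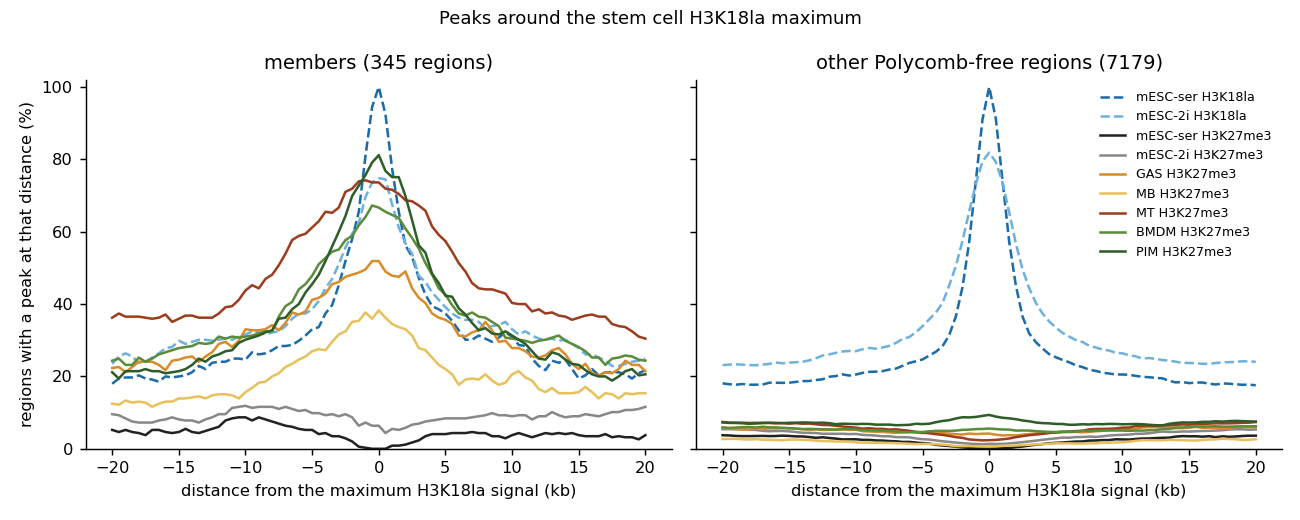
Share of regions (percent) under a peak of each list, by distance (kb) from the point of maximum H3K18la signal in mESC-ser, for the members and for the other Polycomb-free regions. Dashed lines are H3K18la in the stem cells and full lines H3K27me3. In the members H3K27me3 of the differentiated cell types is highest around the stem cell maximum and falls on both sides, and in the others it stays below 10% at the centre.

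H3K18la was mostly absent from the members after differentiation. It was present at 68 of 345 members in GAS (19.7%, interval 15.9 to 24.2; others 49.4%), at 65 in ADIPO (18.8%, interval 15.1 to 23.3; others 52.8%), at 8 in BMDM (2.32%, interval 1.18 to 4.51; others 23.9%) and at 6 in MB (1.74%, interval 0.799 to 3.74; others 16.6%). In MT 38 members carried it (11.0%; others 46.4%) and in PIM 37 (10.7%; others 46.5%). The difference between members and others was thus -14.9 percentage points in MB, -21.5 in BMDM, -29.7 in GAS, -34.0 in ADIPO, -35.4 in MT and -35.8 in PIM. The mean difference was -28.5 points (SD 8.55, n = 6 cell types, lower in 6 of 6), with p = 0.03125 when the signs were flipped over cell types (exact permutation test, two-sided), the smallest p that 6 cell types can give. MT and PIM, whose H3K27me3 chose the members, gave the largest differences, and MB with MT and BMDM with PIM are related cell types that the test counts as separate. The 4 cell types whose lists the rule did not use gave -25.0 points, too few for an exact p under 0.05. Among regions no wider than the median of 3491 bp it was -27.3 points (128 members and 3634 others). It was smaller, at -16.5 points, by the percent of bases covered and, at -12.4 points, with the 5000 largest peaks of each list.

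No differentiated cell type had H3K18la at 221 members (64.1%, interval 58.9 to 68.9), against 1757 of the others (24.5%). It was found in 1 cell type at 67 members (19.4%, against 15.7% of the others) and in 6 of 6 at 2 (0.580%, against 6.57%). At 98 members (28.4%) H3K27me3 was present in 5 of 5 and H3K18la in 0 of 6 differentiated cell types, and 80 of these 98 kept H3K18la in 2i. Any H3K18la after differentiation was seen at 13 of the 18 members with H3K27me3 in 2 cell types, at 26 of 71 with 3, at 39 of 112 with 4 and at 46 of 144 with 5.

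Polycomb-free regions that met only a part of the rule gave a mixed picture. With H3K27me3 in MT and not in PIM (285 regions), H3K18la in GAS was at 21.4% and in PIM at 28.1%, and with H3K27me3 in PIM and not in MT (907 regions) it was at 53.9% in GAS and 29.9% in PIM. In BMDM these groups stood at 9.47% and 13.9%, and in MB at 2.46% and 26.5%. Where neither cell type had H3K27me3 (5987 regions), the shares were 50.1% in GAS, 49.9% in PIM, 26.1% in BMDM and 15.8% in MB. H3K27me3 in PIM alone thus went with less H3K18la in PIM, BMDM and ADIPO and not in GAS, MB or MT.

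The other active marks were also less frequent at the members in differentiated samples. H3K27ac was present at 73 members in GAS (21.2%, against 61.2%), at 64 in ADIPO (18.6%, against 52.6%), at 35 in PIM (10.1%, against 54.0%) and at 12 in BMDM (3.48%, against 40.4%). Their mean of 13.3% fell to 7.18% in 1000 bp windows at the maximum, 3.85% with the 5000 largest peaks of each list and 3.77% with at least 50% of the stem cell peak covered. No share of the others is given for these settings. By bases, H3K27ac covered 11.7% of the members in GAS, 6.83% in ADIPO, 1.81% in PIM and 1.15% in BMDM. The others stood at 44.5, 25.4, 17.5 and 20.1%. H3K4me3 was less often missing: it lay at 145 members in GAS (42.0%, interval 36.9 to 47.3, against 62.3%) and at 106 in PIM (30.7%, interval 26.1 to 35.8, against 61.1%), and at 84 in both. These shares rest on an overlap of 1 bp: their mean of 36.4% was 12.6% with at least 50% of the stem cell peak covered and 9.13% with the 5000 largest peaks of each list. Among members with a CpG island, 118 of 180 (65.6%) carried it in GAS and 84 (46.7%) in PIM, against 95.7% and 93.0% of the others with an island.

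Active and repressive marks met at a number of members in the same sample. In GAS 34 of the 68 members with H3K18la (50%) also had H3K27me3, below the 74.8% of all members, and in 23 of these the peaks shared bases. For H3K4me3 in GAS, 95 of 145 members (65.5%) had H3K27me3 too, and 69 shared bases. In PIM, where H3K27me3 was required by the rule, 95 of the 106 members with H3K4me3 shared bases with it. The median shared part over all 106 was 28.2% of the region. In BMDM 1 of 8 members with H3K18la had H3K27me3 and no bases were shared, and in MB 1 of 6. Whether the marks sat on the same cells was not tested.

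Among the gene lists, that of core and naive pluripotency factors had the most genes with a member. Of 5845 protein-coding genes with a Polycomb-free stem cell promoter region, 298 (5.10%) had a member. Of 16 core and naive pluripotency factors with such a region, 8 had a member: Pou5f1, Sox2, Tfcp2l1, Fgf4, Sall4, Tdgf1, Dppa5a and Utf1. The list was written with earlier results of these data known, and no test was made. Early developmental RNA and chromatin regulators had a member at 6 of 15 genes, epithelial junction and keratin genes at 4 of 11, ephrin, cadherin and neural adhesion genes at 2 of 5, and WNT and Hedgehog genes at 1 of 6 (Gli2). SOX, zinc finger and other developmental factors had 1 of 4 (Zfp57), and of the formative and primed factors only Nodal had a Polycomb-free region, a member. None was found among 8 FGF and ERK feedback genes, 6 BMP and TGF-beta genes, 5 germ cell genes and 8 housekeeping genes. Together these lists held 23 genes with a member, in 26 regions.

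**Figure D5:**
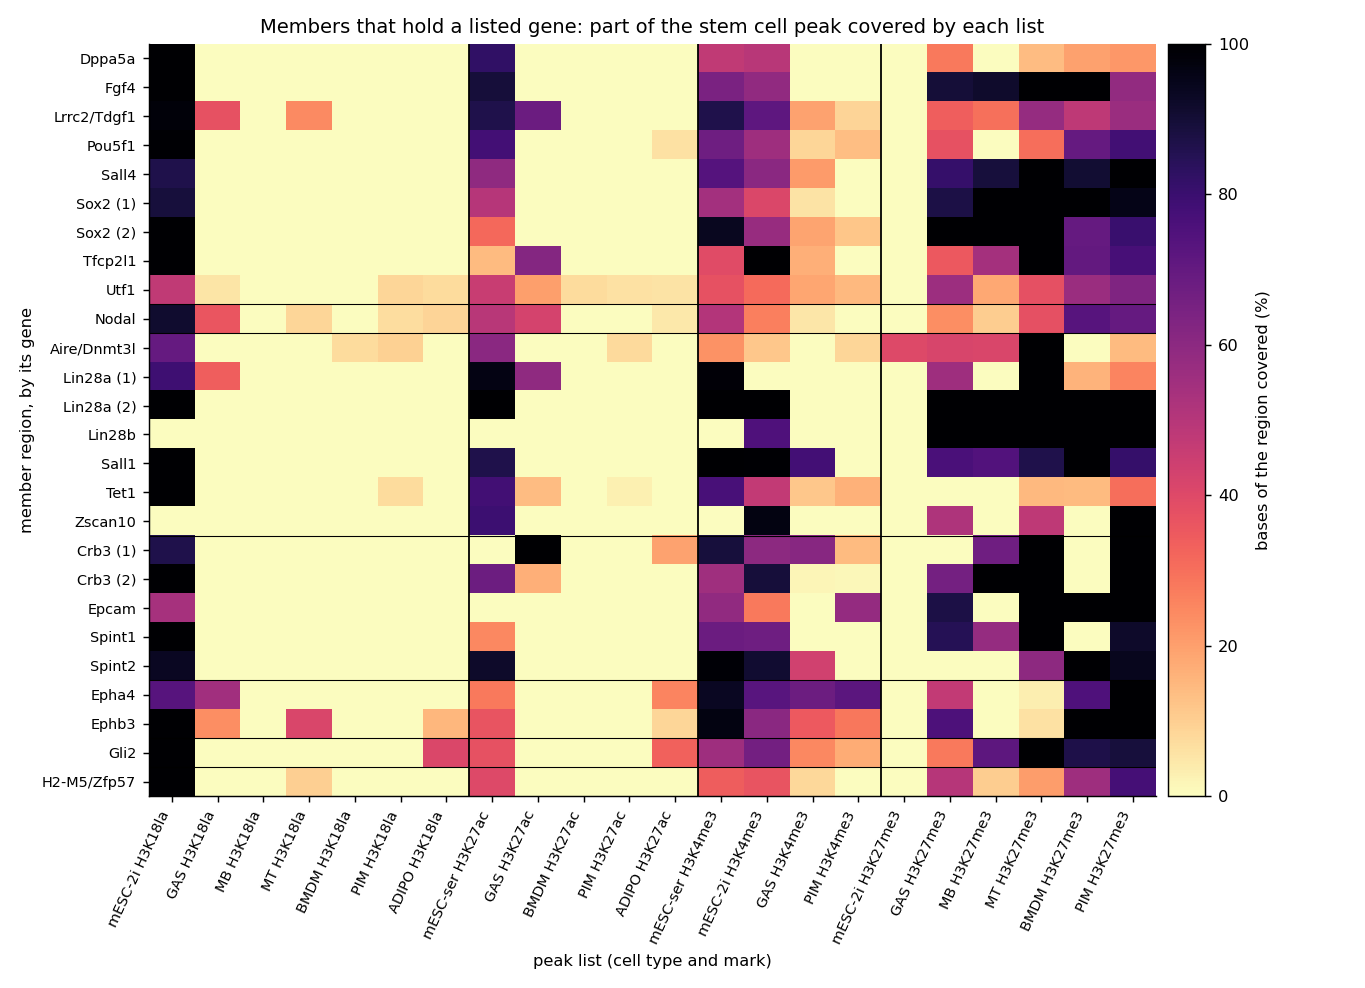
Part of each stem cell peak (percent of its bases) covered by each of the 22 other lists, for the 26 members that hold a listed gene, with lines between marks and between gene lists. Stem cell lists of active marks are dark in most rows, H3K18la and H3K27ac of differentiated samples are pale, and H3K27me3 is dark in the differentiated samples but absent from 2i in 25 of 26.

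The 9 members of the pluripotency factors all had H3K18la and H3K4me3 in 2i, and H3K27ac and H3K4me3 in mESC-ser, with no 2i H3K27me3. H3K27me3 was at 9 of 9 in GAS and BMDM and at 7 of 9 in MB. H3K18la was at 2 of 9 in GAS, at 1 each in MT, PIM and ADIPO and at none in MB and BMDM. H3K4me3 was still at 7 of 9 in GAS and 4 of 9 in PIM, and H3K27ac at 3 of 9 in GAS, 2 in ADIPO and 1 each in BMDM and PIM.

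Pou5f1 lay in a member of 22900 bp (chr17:35495838-35518737), which ranked 168 of 18762 by total signal and also held Tcf19 and Cchcr1. H3K18la covered 99.5% of it in 2i and none of it in the 6 differentiated cell types. H3K27me3 covered 78.5% in PIM, 69.8% in BMDM, 37.5% in GAS, 30.1% in MT and 0% in MB.

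Sox2 held a pair of members, of 12824 and 21159 bp (chr3:34639031-34651854 and chr3:34652319-34673477). Neither carried H3K18la or H3K27ac in any differentiated cell type, and both had H3K27me3 in 5 of 5. The wider one was covered by H3K27me3 over 100% in GAS, MB and MT, 80.4% in PIM and 69.9% in BMDM.

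Fgf4, the growth factor that OCT4 and SOX2 activate in stem cells, lay in a member of 17057 bp (chr7:144851035-144868091). H3K27ac covered 89.3% of it in mESC-ser and none in the 4 differentiated samples with an H3K27ac list. H3K27me3 covered 100% in MT and BMDM, 91.4% in MB, 89.8% in GAS and 58.4% in PIM.

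Tfcp2l1 (9317 bp) and Sall4, a zinc finger factor (11427 bp), had no H3K18la after differentiation and H3K27me3 in 5 of 5. Tfcp2l1 nonetheless had GAS H3K27ac over 61.8% of its region, beside GAS H3K27me3 over 35.4%. Tdgf1 shared its member with Lrrc2, a gene of heart and skeletal muscle (chr9:110943578-110962963). In muscle this region held H3K18la over 37.1% (GAS) and 24.3% (MT) and GAS H3K27ac over 68.2%, as well as GAS H3K27me3 over 33.8%.

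Dppa5a, an RNA-binding protein of stem cells, had the strongest signal of this group (23375 bp, rank 51), but H3K27me3 covered 13.9% of the region in MT, 21.8% in PIM, 19.9% in BMDM and 27.7% in GAS. No H3K27me3 list of a differentiated cell type lay within 2000 bp of a Dppa5a TSS, and the region also holds Ooep and Gsta2. Utf1 lay in a member of 20770 bp with H3K27me3 in 5 of 5 cell types, and H3K18la over 47.3% of it in 2i. H3K18la was also found there in PIM (8.55%), ADIPO (7.16%) and GAS (5.40%). Among all 23 listed genes with a member, 19 had both MT and PIM H3K27me3 within 2000 bp of a TSS of their own. Of the other 4, Zscan10, Zfp57 and Ephb3 had that of PIM and not that of MT, and Dppa5a had neither.

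Of the 8 pluripotency factors with a Polycomb-free region and no member, Klf2 had H3K18la within 2000 bp of a TSS in 6 of 6 differentiated cell types and H3K27me3 in 0 of 5, and Klf4 had 5 and 0. Nanog had H3K27me3 in 4 of 5, MT being the one without. Zfp42 and Tcl1 had neither mark in any of them. Esrrb had H3K27me3 in 5 of 5 and in both media of stem cells. At Zfp42 and Tcl1 H3K18la was thus called in stem cells only and H3K27me3 in no list.

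RNA and chromatin regulators of the early embryo gave 7 members. Lin28a, which blocks let-7 processing, held a pair. The one at chr4:134009616-134013802 had H3K18la in 1 of 6 differentiated cell types and H3K27me3 in 4 of 5. Within 2000 bp of a Lin28a TSS, H3K18la and H3K27ac lay in GAS. The member at chr4:134016823-134019883 was covered by H3K27me3 over 100% in GAS, MB, MT, BMDM and PIM. H3K18la covered 99.9% of it in 2i and none after differentiation. Lin28b, the paralogue of Lin28a, had a member of 2166 bp with the same 100% H3K27me3 in all 5. It had no H3K18la in 2i and no H3K27ac or H3K4me3 in mESC-ser (2i H3K4me3 covered 75.3%), and another TSS of Lin28b lay within 2000 bp of stem cell H3K27me3. Sall1 was covered by H3K27me3 over 74.3 to 100% in the 5 cell types. Tet1, a dioxygenase of methylated cytosine, had one of the largest members (22960 bp, rank 92), with H3K27me3 over 30.1% in PIM, 14.6% in MT, 14.2% in BMDM and none in GAS and MB, and PIM H3K18la over 7.28%. Within 2000 bp of any Tet1 TSS, H3K18la also lay in ADIPO, GAS and MT.

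Dnmt3l, a cofactor of DNA methylation, shared a member with Aire (chr10:78036439-78055836). It was the only one of the 26 with H3K27me3 in 2i (40.0% of its bases), together with 2i H3K18la over 69.6%. Zscan10, a zinc finger factor of stem cells, had a member of 2156 bp without H3K18la in 2i. Within 2000 bp of any Zscan10 TSS, however, H3K18la lay in 2i and in ADIPO, BMDM, GAS and PIM.

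The epithelial genes gave 5 members: Epcam, a surface adhesion protein, Crb3 (a pair), a polarity protein, and Spint1 and Spint2, inhibitors of serine proteases. All 5 had 2i H3K18la and none had it in any differentiated cell type, though PIM H3K18la lay within 2000 bp of a Spint1 TSS. H3K27me3 of BMDM covered 100% of Epcam and Spint2 and none of Spint1 or either Crb3 region. In GAS it covered 87.2% of Epcam and 85.0% of Spint1.

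Among the signalling and adhesion genes, Nodal, a TGF-beta ligand, was one of the 10 widest members (21503 bp) and had both marks widely: H3K27me3 in 5 of 5 cell types and H3K18la in 4 of 6, over 36.2% in GAS. Within 2000 bp of a Nodal TSS, H3K18la lay in GAS alone of these 6. Ephb3 and Epha4, ephrin receptors, had GAS H3K18la over 23.5% and 54.8% and H3K27me3 over 75.4% and 47.2% in the same tissue. H3K27me3 of mESC-ser lay within 2000 bp of an Ephb3 TSS, outside the member. The member of Gli2, a Hedgehog transcription factor, had H3K18la in ADIPO alone (40.7%), though within 2000 bp of any Gli2 TSS H3K18la also lay in GAS and MT. The Zfp57 region, which it shared with H2-M5, had H3K18la in MT alone (9.94%).

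The largest members were led by genes outside these lists. Mapt, which encodes the tau protein, had the largest total signal (1237964, rank 26) in a region of 37410 bp, with H3K27me3 over 52.6% in BMDM, 34.4% in PIM, 9.37% in MT, 3.90% in MB and none in GAS. Others by total signal were 2900041M22Rik, Pla2g10, a secreted phospholipase, Gm29283, Adrb3, the beta-3 adrenergic receptor, and 2410137M14Rik. B3gnt7, a glycosyltransferase, was among the widest. In fat, ADIPO H3K18la covered 85.0% and ADIPO H3K27ac 67.5% of the Adrb3 member, which also holds Got1l1 and Gm45470.

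With H3K27me3 in 5 of 5 cell types, Igf2bp1, an RNA-binding protein of embryonic tissue, had no H3K18la or H3K27ac in any differentiated sample and H3K27me3 over 42.2 to 76.5% of its wider region (19327 bp). Dmtn, an actin-binding protein of red cells, and Pipox, an oxidase of peroxisomes, were named by the same criterion, and both had H3K18la in ADIPO.

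A few members stayed marked by H3K18la. Ralgds, an exchange factor for Ral GTPases, and Daam1, a formin, had it in 6 of 6 differentiated cell types, and Pnpla3, a lipid droplet enzyme, Tle4, a corepressor, Josd2 and Garnl3 in 5. Ube2s had it in 4. At Daam1, H3K27me3 covered 9.41% in MT and 27.7% in PIM, and H3K18la covered 100% in GAS and MT. At Ralgds, H3K27me3 covered 13.1% in MT, 14.3% in BMDM and 44.2% in PIM. The 8 members with H3K18la in BMDM included Ralgds, Garnl3, Josd2, Aire, Daam1, Pnpla3 and Tle4. The members with H3K18la in MB included Ralgds, Adrb3 and Daam1.

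At the edge of the rule, the members with the least overlap were Rpap1 (14 bp with MT H3K27me3), Gm34680 (49 bp) and Lgals12 (57 bp). Just outside it, the regions of Etnk2, Sigirr and Pde9a overlapped PIM H3K27me3 and missed that of MT by 1, 4 and 13 bp.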

How the data were processed

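CUT&Tag peak lists of 24 groups (41 mouse samples, 1 or 2 per group) were used. Per the submitters' processing notes and methods, the authors trimmed reads (Trim Galore 0.6.6), aligned them to mm10 (Bowtie2 2.4.4), computed coverage (bedtools 2.30), combined replicates and called the top 1% of regions with SEACR 1.3. The deposited values are the total and maximum signal (coverage summed over a peak, and its highest value), unscaled for depth. Signal was ranked within a list only, and sums per list are given as a description.

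Peaks on chromosomes 1 to 19 were joined to the GENCODE annotation of GRCm38, which is mm10. A region had a mark where 1 bp overlapped a peak. A member was named by the protein-coding gene whose TSS was nearest its maximum signal (289 of 345 members), or by another gene where there was none. Genes were named from the gene lists, from the 10 largest, the 10 widest and the 10 members with most H3K18la after differentiation, from the 10 largest with H3K27me3 in 5 cell types, from the edge of the rule and from counts of 5 or fewer. Others are said to have been chosen after their values were seen. Some genes that the rule names are not reported here. Members, lists and tests were chosen with earlier results of these data known.

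CpG islands were called outside repeat-masked bases (over 200 bp, GC at least 50%, CpG ratio at least 0.6). The 1 test flipped the signs of the differences of 6 cell types (exact permutation test, two-sided), with the cell type as the unit. Interval functions were checked against bedtools 2.31.1 and the test was tested on simulated data. Python 3.11.15, numpy 2.4.6, pandas 2.3.3, scipy 1.17.1, numba 0.67.0 and matplotlib 3.10.9 were used. Alternatives changed the promoter, the overlap, the place of the overlap, the number of peaks and the cell types. The number of sequenced reads per sample was not analysed here.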

Additional observations from a re-analysis of the deposited data

How the results depend on the processing

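The mean H3K18la difference between members and other Polycomb-free regions kept its direction under every alternative run. It was -25.0 points (too few cell types for an exact p under 0.05) with GAS, MB, BMDM and ADIPO only and -27.5 points (exact sign-flip p = 0.0625, the smallest possible) with the 5 cell types whose labels name the mark under antibody. Leaving out 1 cell type gave -31.3 to -27.1 points, each at the smallest p that 5 cell types allow (0.0625). The other settings ran from -33.6 to -12.4 points, each with p = 0.03125 by the exact test.

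With at least 50% of the stem cell peak covered (stem cell H3K27me3 and promoter overlap kept at 1 bp), 219 members were left, all among the 345. The mean H3K27ac share of members fell to 40.2% in mESC-ser and 3.77% in GAS, BMDM, PIM and ADIPO, the H3K4me3 share to 47.9% in stem cells and 12.6% in GAS and PIM, and 2i H3K27me3 to 7.31%. In 1000 bp windows at the maximum these shares were 62.3% (H3K27ac in mESC-ser), 7.18% (H3K27ac in differentiated samples, against 13.3%), 55.9% and 24.2% (H3K4me3) and 7.27% (2i H3K27me3). With the 5000 largest peaks per list, 104 members were left, with 2i H3K18la at 62.5%, 2i H3K27me3 at 5.77%, H3K27ac in differentiated samples at 3.85% and H3K4me3 in GAS and PIM at 9.13%. The cause was not tested, and shares of the others under these settings are not given. With TSS of protein-coding transcripts only, H3K4me3 rose to 71.4% in stem cells and 46.2% in GAS and PIM. Of all 72 recomputed values, 47 stayed on their side of the threshold, or within the counting error (shares in 1 cell type), the SD over cell types (mean shares), 1.5 times (counts) or the spread (width) of the main value, and 0 reversed.

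After the data had been seen, 1 member per 50 kb locus (-27.0 points; H3K27me3 in GAS, MB and BMDM 70.4%) and narrow members only (H3K27me3 63.5%, against 70.2% for all members) were added. No paired analysis was possible because the authors pooled replicates before peak calling. No read depth per sample was used, so a missing peak is a peak not called in that list, not a mark shown to be absent.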
